A study of Mus musculus with 8 samples.

Results

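The serpins are a family of protease inhibitors, measured here in mouse bone marrow cells by the 76 array probes whose gene name begins with Serpin, leaving out Serping1. These probes stood for 60 genes among the 34787 named on the array, and 37 of the 60 genes passed the filter on dim probes. RNA was measured with 1-colour expression arrays: labelled RNA is hybridised to printed probes, and a scanner reads how bright each spot is. Each of 4 groups had 2 arrays. Macrophages were raised from bone marrow over 7 days in M-CSF, their growth factor. They were kept in control medium, or for 24 hours in IL-4 (a cytokine that drives alternative activation) or in LPS (a bacterial cell wall product that drives classical activation). Colony cells came from marrow kept for 7 days on an endothelial monolayer in HSC media, so that substrate and medium differed together between them and the macrophages. All samples, controls included, came from mice of a B6 background with the CAG-DsRed*MST transgene, a red fluorescent reporter driven by a ubiquitous promoter. The labels left unsaid whether a group's arrays held RNA of separate animals or cultures, and whether endothelial cells were removed before extraction, so the p-values below measure the spread between these samples, which may be technical.

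An inhibitory serpin exposes a loop that its target protease cuts, and the serpin then refolds and traps the protease in an inactive complex. The family is divided into clades by sequence. Clade A holds mostly secreted proteins such as the α1-antitrypsins (Serpina1) and antichymotrypsins (Serpina3), and clade B mostly intracellular proteins that protect a cell from its own granule and lysosomal proteases. Serpins of clades C, D and E act on proteases of clotting and clot breakdown, and Serpini1 acts on tissue plasminogen activator. Serpinh1 and Serpinf1 have the serpin fold but are not protease inhibitors. In the mouse, several human serpins correspond to clusters of closely similar copies. Macrophages are known for Serpinb2, an inhibitor of urokinase that inflammatory stimuli induce.

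Several probes for these copies were themselves nearly alike, and 3 sets of short probe stretches are shown because what they share bears on how the values can be read. Each stretch has 30 of the 60 bases of a probe, and positions follow the array files (build mm9). In the first set, capitals mark letters that differ from the Serpinb6a line.
Serpinb6a (chr13:34009796-34009855, minus strand): aagtgaccttatccataagtgcaatggcaa
Serpinb6c (chr13:33971703-33971762, minus strand): aagtgaccttatccataagtgcaatgAcaG
Serpinb6e (chr13:33924218-33924277, minus strand): aagtgaccttatccataaAtATaatgAcaG
In the next set, capitals mark letters that differ from the Serpina1c line.
Serpina1c (chr12:105133165-105133224, minus strand): taagatgtcatccttccttctgaattgggt
Serpina1a (chr12:105091819-105091878, minus strand): taaAatgtcatccttccttctgaattgggt
Serpina1e (chr12:105185172-105185231, minus strand): taagaAgtcatccttccttctgaattgggt
The Serpinb8 probe is shown for a different reason. Capitals mark runs of at least 6 bases of the repeat GT, which made up 41 of its 60 bases.
Serpinb8 (chr1:109504865-109504924, plus strand): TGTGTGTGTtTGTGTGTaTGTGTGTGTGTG

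Over their whole overlap, the Serpinb6a probe was identical to the printed Serpinb6c probe at 39 of 42 bases, and to a second Serpinb6c probe at 55 of 59. The printed Serpina1a and Serpina1c probes were identical at 50 of 51, those of Serpina1c and Serpina1e at 49 of 59, and those of Serpinb6c and Serpinb6e at 41 of 47. RNA of one such copy can bind a probe made for another, so the values of these probes are uncertain as values of separate genes. For Serpinb6a, Serpinb6c, Serpinb6e and Serpina1c they include the probe that stands for the gene. The printed Serpina1a and Serpina1e probes are second probes, and the probes that stand for those genes had no such overlap. No such overlap was found for the probes of Serpinb6b and Serpinb6d. Probes were compared only with each other and without gaps, so binding of a copy's RNA to a probe without an overlap was not tested.

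Levels are given below as scaled intensity, the scanner's background-subtracted signal after each array was scaled to a common 75th percentile. A level of a probe can be compared between arrays but not with that of another probe. Changes are log2 differences between group means ± their standard error from limma, with 2 arrays a group. Calls were made at 0.05 after Benjamini-Hochberg adjustment across the 26504 genes tested. With 2 arrays against 2, the smallest two-sided p of an exact permutation test is 0.333, and the calls depend on limma's pooling of variances over genes. Where a probe was not well above background on either array of a group, the fold is a lower bound ("at least"). Of the 145 member calls over 6 comparisons, 62, in 17 genes, moved by more than 1.5 times with another background correction (normexp), all 62 toward 0. Folds of dim genes, the lower bounds among them, therefore hold for the correction used, and the normexp values of the main ones stand beside them. The share of spots well above background was 62.4% to 72.2% per array. It was highest on LPS replicate 2, which had 105 uneven spots where the other arrays had 0 to 5, and calls against control that were lost without it are named below. Pearson r between replicates, across genes, was between 0.986 (LPS) and 0.997 (IL-4).

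Of the 60 genes, 24 were well above background on both arrays of every group, and 18 on no array. Clade A had 14 of 24 genes past the filter, clade B 15 of 27, and clade I 1 of 2, while every gene of clades C (1), D (1), E (2), F (2) and H (1) passed. The 23 that did not pass were Serpina12, Serpina1d, Serpina3a, Serpina3c, Serpina3j, Serpina3k, Serpina4-ps1, Serpina5, Serpina6, Serpina7, Serpinb11, Serpinb13, Serpinb3a, Serpinb3b, Serpinb3d, Serpinb5, Serpinb7, Serpinb9b, Serpinb9c, Serpinb9d, Serpinb9f, Serpinb9g and Serpini2. Among them are the hormone carriers Serpina6 (cortisol-binding globulin) and Serpina7 (thyroxine-binding globulin), the epithelial serpin Serpinb5 (maspin) and most of the Serpinb9 copies. Only 5 of these were above background on 1 array: Serpina3a, Serpina6 and Serpini2 on LPS replicate 2, Serpina3c on LPS replicate 1, and Serpina3j on colony replicate 2.

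With LPS, 24 of the 37 genes were called (11 higher and 13 lower), against 54.5% of all genes tested (29.0% higher and 25.5% lower). At 2-fold or more, 11 members were called higher and 9 lower, beside 3210 and 2684 of all 26504 genes. Whether the members differ from all genes was not tested. Serpinb2, the α1-antitrypsin copies Serpina1a and Serpina1c, the antichymotrypsin copies Serpina3f and Serpina3g, and the repeat-rich Serpinb8 probe were among those that rose at least 4-fold, while the Serpinb6 copies, Serpinb1a and Serpinf1 fell. One lower call, Serpind1, was dim in both groups and has no fold. The median log2 change was 0.01 over the 37 genes and 0.08 over all genes. The split of all calls depended on the scaling: 53.2% of called genes were higher here, 43.1% with normexp background correction, 39.3% with median centring and 38.5% in the authors' deposited values. The all-gene median was -0.15, -0.11 and -0.13 in those 3 settings. Members were called 11 higher and 13 lower with median centring too.

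IL-4 moved fewer. It called 16 of the 37 (7 higher and 9 lower), against 18.8% of all genes (9.89% higher and 8.96% lower). Among the lower ones, Serpind1 was dim in both groups and has no fold, and its call was lost with normexp (log2 -0.27, adjusted p = 0.206). Serpinb12, Serpina3g and Serpinb1b rose by over 2-fold, and Serpinf1, Serpine2 and Serpini1 were among those that fell by over 2-fold. The median log2 change was 0.10, against -0.01 over all genes. This count rested on the IL-4 arrays: it was 9 without IL-4 replicate 1 and 5 without IL-4 replicate 2. With median centring 7 were higher and 6 lower.

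In colony cells 27 of the 37 were called against control macrophages (13 higher and 14 lower), with 71.3% of all genes called (24.7% higher and 46.6% lower). Serpina3n, Serpind1 and Serpinb10-ps were well above background on both arrays only in colony cells, and so passed the filter through that group alone. Their testing depended on a high level there, so their higher colony calls and p-values, here and below, are descriptive only. Serpind1, Serpine2, Serpinh1, Serpini1, Serpinf1, Serpinb2, Serpina3n and 4 further clade B genes, rose by over 6-fold, the collagen chaperone Serpinh1 among them. The Serpinb6a, Serpinb6c, Serpinb6d and Serpinb6e probes fell, as did Serpina3f and Serpinc1. The median log2 change was -0.05, against -0.35 over all genes. The 3 comparisons share the control arrays.

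**Figure D1:**
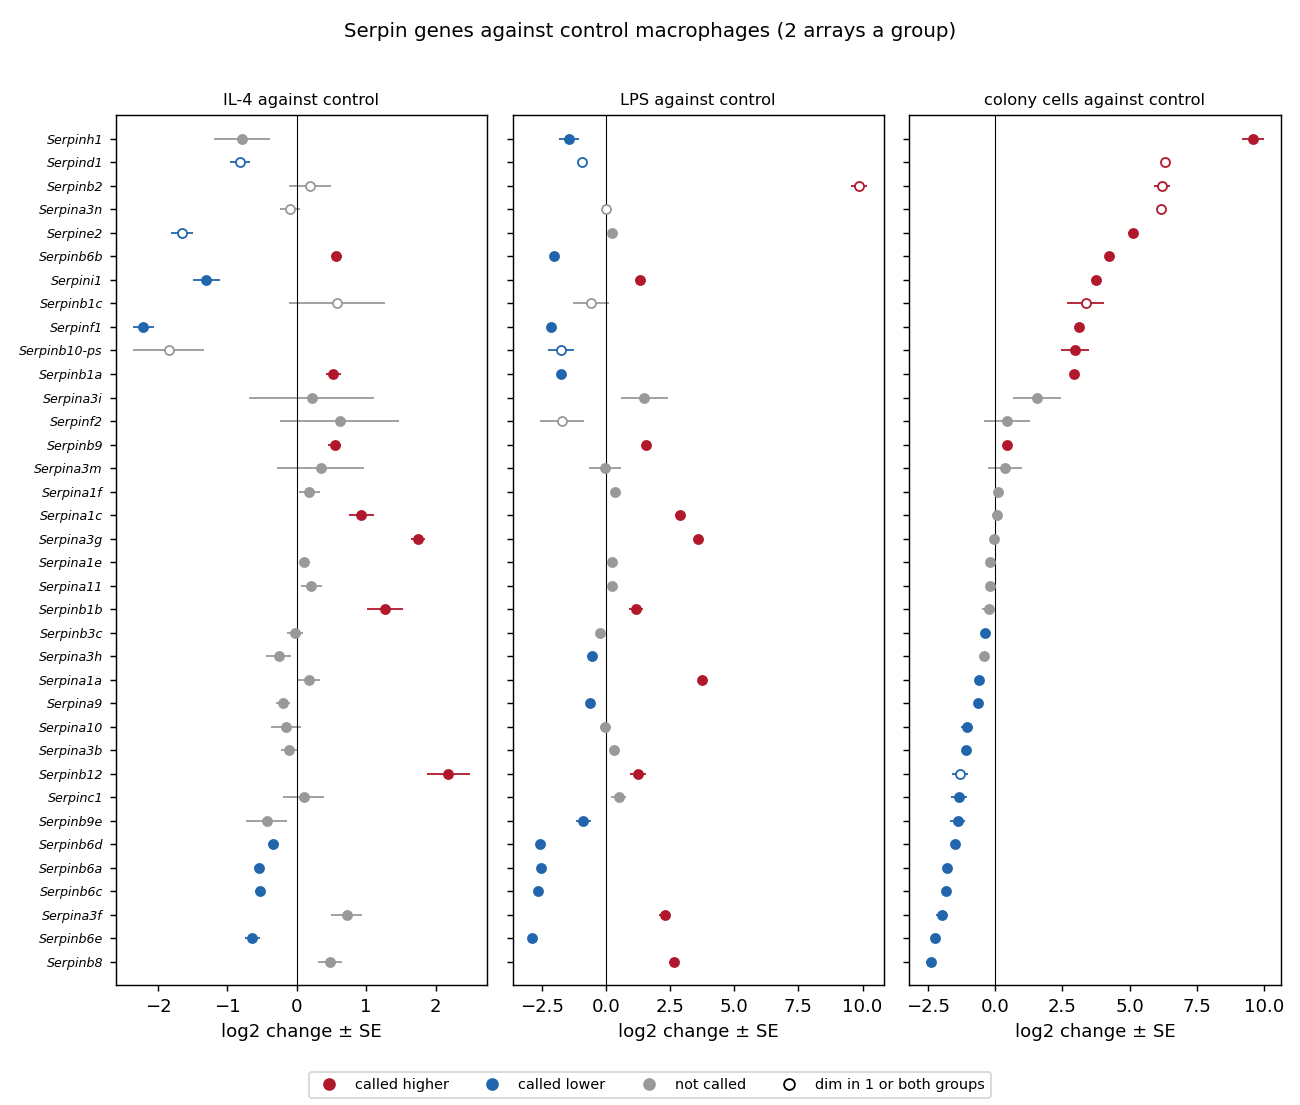
Log2 change ± SE of serpin genes that passed the filter, in IL-4, LPS and colony cells against control macrophages, ordered by the change in colony cells, with 2 arrays a group. Red and blue points were called higher and lower, and grey points were not called. Open points were dim in 1 group, where any fold is a lower bound, or in both, where no fold is given. For 1 member no point is shown, and Serpini1 lies right of 0 for LPS and colony cells and left of 0 for IL-4.

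The makeup of the colony RNA bears on each colony value below. All 16 mesothelial markers were higher in colony cells than in control macrophages (median log2 change 11.13), as were 14 of 15 fibroblast markers tested (median 5.71), while 15 of 16 pan-leukocyte and 15 of 16 macrophage markers were lower (medians -3.09 and -3.30). The summed scaled intensity of the mesothelial list was 331301 to 339735 on the colony arrays and 285 to 574 on the macrophage arrays, and that of the fibroblast list 214897 to 224583 against 323 to 1255. Mast cell markers were higher for 8 of 9 tested, with a summed level of 4533 to 4551 on the colony arrays and 449 to 552 in control. That sum was higher still in LPS macrophages, at 5487 to 5892. Neutrophil markers were higher for 6 and lower for 1 of 12 (median 1.08), with a summed level of 32552 to 33383 on the colony arrays and 31197 to 37405 in control. Endothelial markers were mixed (5 higher and 5 lower of 11 tested). Of the 16 listed, Cdh5, Tie1, Emcn, Erg, Sox17 and Sox18 were dim in colony cells. Tek, Esam, Robo4 and Ptprb were dim in control but not in colony cells. Hepatocyte markers, relevant because many clade A serpins are known from liver, were dim for 7 of 10, Alb among them. The part of each cell type in the serpin values was not tested, and in bulk RNA fewer cells of a type and less RNA per cell cannot be told apart.

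Among inhibitors of plasminogen activation, Serpini1 was called in each of the 3 comparisons with control. Plasminogen becomes plasmin, which dissolves fibrin, through urokinase and tissue plasminogen activator, and Serpinb2 (PAI-2), Serpine2 (protease nexin 1) and Serpini1 (neuroserpin) inhibit these activators, whereas Serpinf2 inhibits plasmin.
Serpinb2 was not well above background in control (2.7 and 2.1) or IL-4 (3.7 and 2.0), and lay at 2375 and 2053 in LPS and 167 and 185 in colony cells. It was at least 227-fold higher with LPS than in control (adjusted p = 7.6e-06) and at least 18.0-fold higher in colony cells (1.6e-05). With normexp these were 34.4-fold and 3.39-fold, below both bounds, and still called. Between these groups, colony cells lay below LPS by 3.65 ± 0.30 on the log2 scale (adjusted p = 1.18e-04). Its level was thus highest in LPS, then in colony cells.
Serpine2 lay at 17.1 and 21.1 in control and 20.4 and 25.4 in LPS, was not well above background in IL-4 (5.6 and 6.6), and reached 687 and 639 in colony cells. It was at least 2.04-fold lower with IL-4 (adjusted p = 0.0024), not called with LPS (0.26 ± 0.16, adjusted p = 0.24), and 34.8-fold higher in colony cells (log2 5.12 ± 0.16). With normexp the colony change was 7.23-fold and the IL-4 call was lost (log2 -0.40, adjusted p = 0.089).
Serpini1 was at 34.1 and 24.8 in control, 13.1 and 10.6 in IL-4, 66.8 and 79.1 in LPS, and 381 and 400 in colony cells. Its changes of 1.32 ± 0.19 (LPS), -1.3 ± 0.19 (IL-4) and 3.75 ± 0.19 (colony cells) were all called, the IL-4 one not without IL-4 replicate 2 (adjusted p = 0.059). They were 0.35, -0.47 and 2.23 with normexp, all called. A second probe, dim in control and IL-4, gave 2.43 ± 0.35 with LPS and 4.67 ± 0.35 in colony cells, but -0.05 ± 0.35 with IL-4. Its order was thus IL-4 lowest, then control, LPS and colony cells, with the IL-4 step seen by 1 of its 2 probes.
Serpinf2 was called in no comparison. Its IL-4 arrays stood apart from each other (12 and 59.6), over control values of 18.2 and 16.7.

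**Figure D2:**
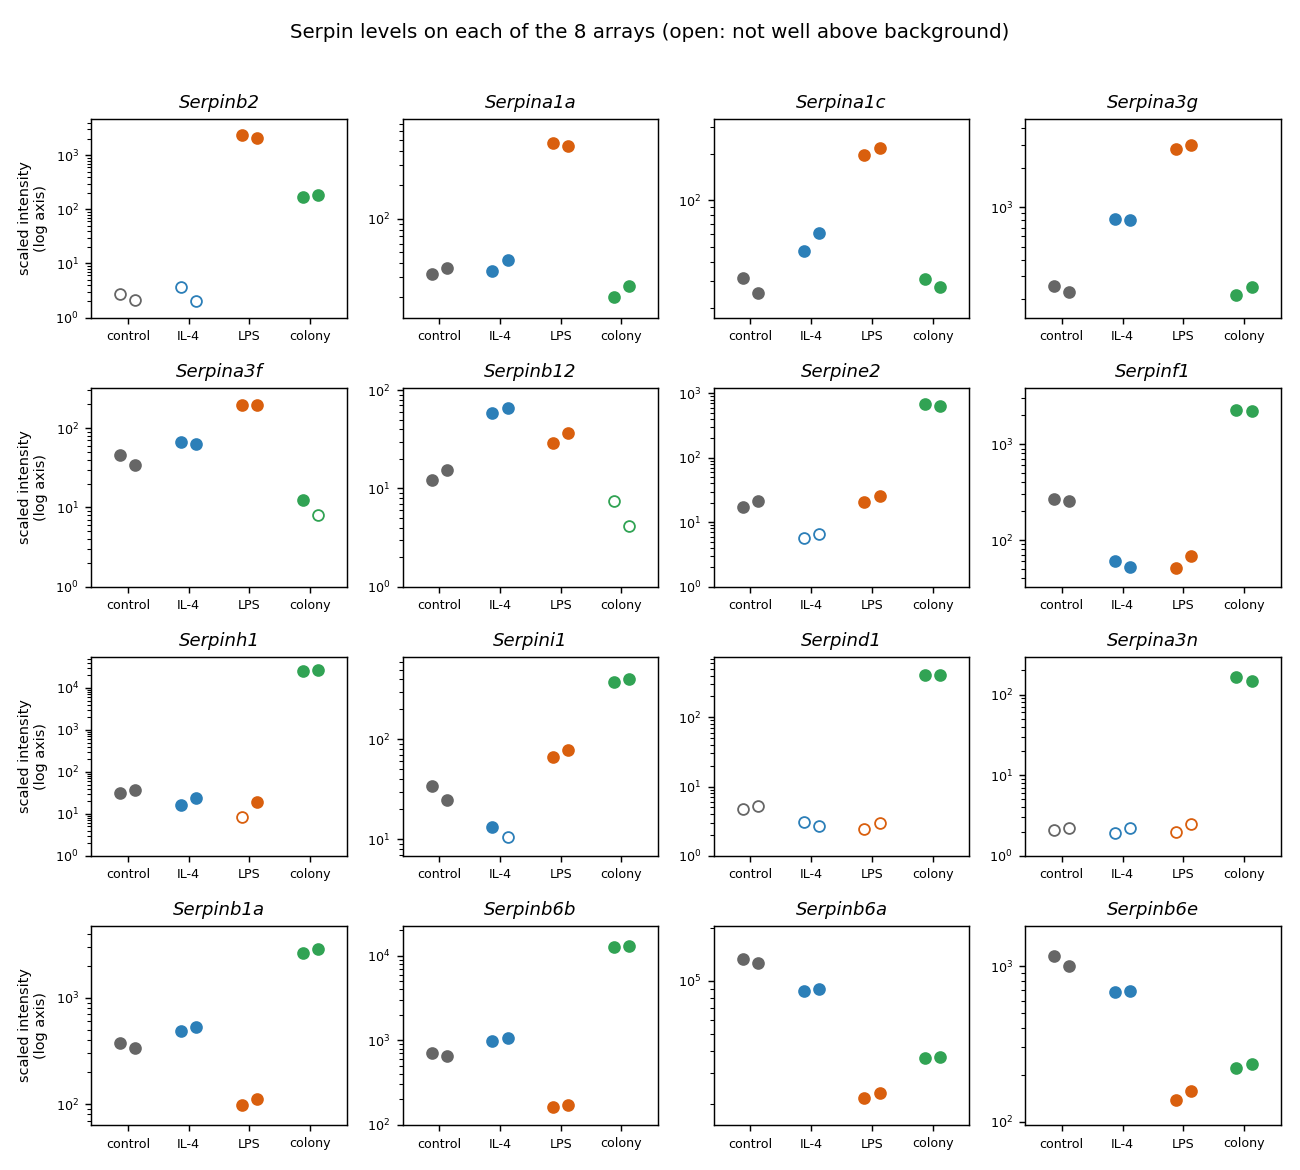
Scaled intensity (log axis) of 16 serpin genes on each of the 8 arrays, by group, with open circles where the spot was not well above background. Serpinb2, Serpina1a, Serpina1c, Serpina3f and Serpina3g peak in LPS, Serpinb12 in IL-4 and Serpinh1, Serpind1 and Serpina3n in colony cells, where Serpinh1 reaches 25938 and 26256.

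In a list of genes of plasminogen activation and related genes, such as metalloproteinases and thrombomodulin, 14 were tested out of 16 listed. Of these, 6 were higher and 5 lower with LPS, 6 higher and 3 lower with IL-4, and 11 higher and 3 lower in colony cells, with medians of 0.34, 0.17 and 1.64. Over all genes 54.5%, 18.8% and 71.3% were called in these comparisons, shares that stand behind the count of every list below. Urokinase (Plau), the main target of Serpinb2, changed by -1.68 ± 0.09 with LPS, 0.71 ± 0.09 with IL-4 and 1.66 ± 0.09 in colony cells, all called. Tissue plasminogen activator (Plat), the target of Serpini1, in colony cells exceeded control by at least 286-fold and was dim in all 3 macrophage groups. The metalloproteinases Mmp13 (6.02 ± 0.14) and Mmp9 (2.57 ± 0.18) led the list with LPS, where thrombomodulin (Thbd) fell by 2.58 on the log2 scale. Mmp13 (2.36 ± 0.14), the urokinase receptor Plaur (1.60 ± 0.09) and Mmp2 (-1.42 ± 0.27) led with IL-4, and Mmp3 (at least 73.8-fold) and Mmp2 (7.98 ± 0.27) followed Plat in colony cells.

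Inhibitors of clotting proteases moved in different directions in colony cells. Serpind1 (heparin cofactor II, an inhibitor of thrombin) was dim on all 6 macrophage arrays (2.4 to 5.3) and lay at 402 and 410 in colony cells, at least 41.7-fold over control (adjusted p = 1.2e-06) and 4.98-fold with normexp.
Serpinc1 (antithrombin) went the other way, from 34.0 and 25.9 in control to 11 and 12 in colony cells (log2 -1.37 ± 0.30, adjusted p = 0.0079). Its IL-4 arrays (31 and 32.4) and LPS arrays (31.1 and 56.7) overlapped the control ones, and neither change was called. Serpina10, the inhibitor that acts with protein Z on factor X, fell by 1.06 on the log2 scale in colony cells (adjusted p = 0.0062).
Among 18 clotting genes tested of 22 listed, 5 were higher and 5 lower with LPS, 6 higher and 3 lower with IL-4, and 8 higher and 7 lower in colony cells. The 10 of 18 called with LPS were near the share of all genes (54.5%). Tissue factor (F3), which starts clotting, exceeded control by at least 374-fold in colony cells and by at least 5.88-fold with IL-4, and the thrombin receptor F2r changed by 8.40 ± 0.15 and 1.54 ± 0.15. Factor VII (F7) changed by 3.02 ± 0.09 with IL-4. With LPS the protein C receptor Procr rose (5.74 ± 0.09), as it did in colony cells (4.18 ± 0.09), while Gas6 (-4.14 ± 0.08) and F13a1 (-3.58 ± 0.07) fell.

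The α1-antitrypsins, best known as liver-made inhibitors of neutrophil elastase, responded to LPS. Serpina1a lay at 32.1 and 36.0 in control, 34.3 and 42.9 in IL-4, 475 and 444 in LPS, and 20.0 and 25.1 in colony cells. It rose 13.5-fold with LPS (log2 3.75 ± 0.16, adjusted p = 2.3e-05; 4.93-fold with normexp), was not called with IL-4, and was lower in colony cells (-0.60 ± 0.16, adjusted p = 0.017), a call that was lost without control replicate 2 (adjusted p = 0.082) or colony replicate 1 (0.085). Serpina1c lay at 31.4 and 25.1 in control, 46.5 and 61.5 in IL-4, 195 and 216 in LPS, and 30.7 and 27.5 in colony cells. It rose 7.32-fold with LPS (log2 2.87 ± 0.18; 2.37-fold with normexp) and by 0.93 ± 0.18 with IL-4 (adjusted p = 0.020). The IL-4 call was lost with normexp (log2 0.15), without control replicate 2 and without IL-4 replicate 2 (adjusted p = 0.089 and 0.096).
For Serpina1e, the 2 probes disagreed. The one with the higher mean signal, which by rule stands for the gene, lay at 88.8 and 82.1 in control and 104 and 96.5 in LPS (0.23 ± 0.08, adjusted p = 0.054, not called). The other, which shares the stretch printed above with Serpina1c, went from 23.8 and 17.0 to 174 and 196 (3.20 ± 0.41, adjusted p = 0.0017 over all probes). The second Serpina1a probe, which also shares that stretch, gave 2.79 ± 0.17 with LPS and 0.75 ± 0.17 with IL-4, beside 2.87 and 0.93 for Serpina1c. Serpina1f, a copy without a shared stretch, was not called with LPS, IL-4 or in colony cells, and neither probe of Serpina1d passed the filter. Among markers of the liver cells that secrete these proteins, 1 of 4 hepatocyte markers tested was higher with LPS, and the summed level of that list was 104 to 178, against 52 to 59 in control.

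**Figure D3:**
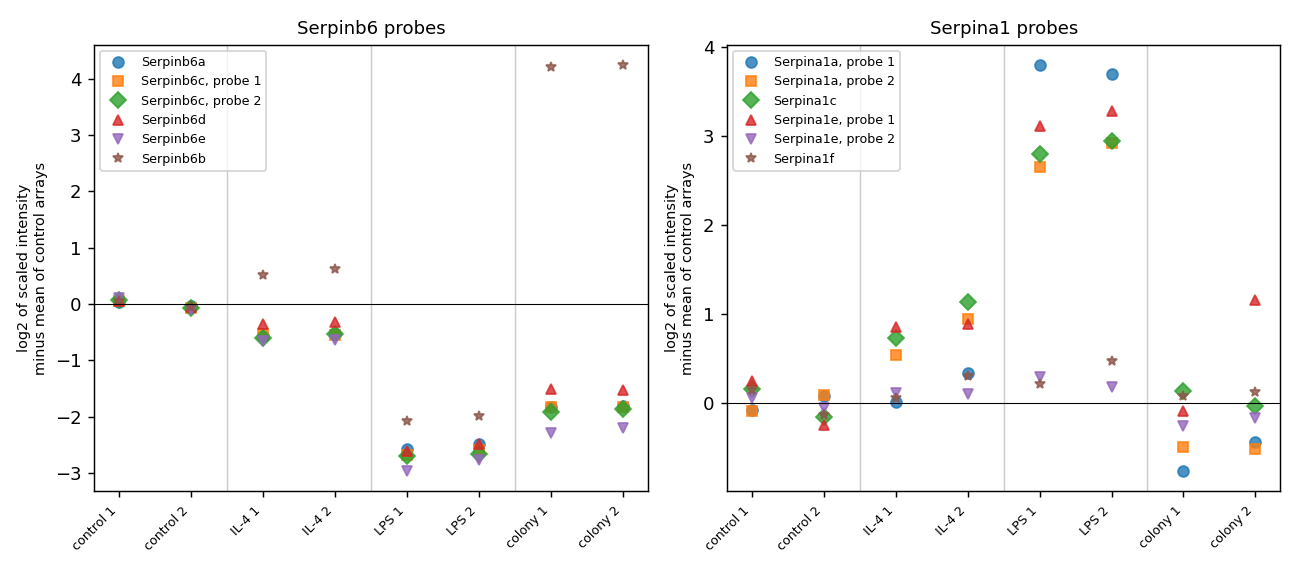
Log2 of the scaled intensity of each probe, minus its mean over the control arrays, on the 8 arrays for 6 Serpinb6 probes and 6 Serpina1 probes. Probes of Serpinb6a, Serpinb6c, Serpinb6d and Serpinb6e move together and Serpinb6b parts from them in IL-4 and colony cells, while in LPS the probes of Serpina1a and Serpina1c and probe 1 of Serpina1e lie well above 0 and probe 2 of Serpina1e, which stands for the gene, and Serpina1f lie near 0.

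The antichymotrypsin copies were high in different groups. Serpina3g (Spi2A), an intracellular inhibitor of lysosomal cathepsins, lay at 253 and 225 in control, 813 and 795 in IL-4, 2787 and 2952 in LPS, and 215 and 246 in colony cells. It rose 12-fold with LPS (log2 3.59 ± 0.10, adjusted p = 5.6e-06) and 3.37-fold with IL-4 (1.75 ± 0.10, adjusted p = 4.1e-04), and in colony cells its arrays overlapped those of control (-0.05 ± 0.10). Both stimuli thus raised it, and LPS exceeded IL-4 by 1.84 ± 0.10 (adjusted p = 5.3e-05).
Its neighbour Serpina3f lay at 45.6 and 34.8 in control, 67.1 and 63.9 in IL-4, 194 and 197 in LPS, and 12.3 and 8.1 in colony cells, the last of these not well above background. It rose 4.91-fold with LPS (2.29 ± 0.23), was not called with IL-4 (0.72 ± 0.23, adjusted p = 0.087) and fell 3.99-fold in colony cells (-2.0 ± 0.23). With normexp these called changes were 2.04-fold and 1.98-fold. A second Serpina3f probe was called with IL-4 as well (1.63 ± 0.17, adjusted p = 0.0037 over all probes) and with LPS (3.1 ± 0.17), but the array files place it at chr12:105492556-105492615, next to the Serpina3h probe at chr12:105491733-105491792 rather than at the first Serpina3f probe (chr12:105458989-105459048).
Serpina3n, a secreted antichymotrypsin known from acute-phase responses and as an inhibitor of granzyme B, was dim on all 6 macrophage arrays (1.9 to 2.5) and lay at 168 and 148 in colony cells, at least 16.2-fold over control (adjusted p = 1.3e-06) and 3.0-fold with normexp. LPS did not bring it above background.
Of the remaining clade A genes, Serpina3h (-0.54) and Serpina9 (-0.62) were lower with LPS, and Serpina3b (-1.10), Serpina10 (-1.06) and Serpina9 (-0.66) in colony cells. The Serpina3h call was lost without any 1 of the control, LPS or colony arrays (adjusted p up to 0.175). Serpina11, Serpina3i and Serpina3m were not called against control. Serpina3i and the filtered Serpina3j each stood high on 1 colony array only, and not the same one: Serpina3i was at 116 and 14.5, and Serpina3j at 1.9 and 71.0, on colony replicates 1 and 2.

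Since Serpina1a and Serpina1c, and Serpina3f and Serpina3g, rose with LPS, the 250 bases before their annotated starts are shown, from RefSeq on build GRCm38.p6, with those of Serpinb2. Capitals mark matches, on either strand, to 6 motifs: the GAS motif (TTCNNNGAA), a STAT6 site (TTCNNNNGAA), AP-1 (TGANTCA), ISRE (GAAANNGAAA), the heat shock element (GAANNTTC) and NF-kB. A promoter entry was found for 49 of the 60 genes and for 30 of the 37 that passed.
Serpina3f (chr12:104214294-104214543, plus strand): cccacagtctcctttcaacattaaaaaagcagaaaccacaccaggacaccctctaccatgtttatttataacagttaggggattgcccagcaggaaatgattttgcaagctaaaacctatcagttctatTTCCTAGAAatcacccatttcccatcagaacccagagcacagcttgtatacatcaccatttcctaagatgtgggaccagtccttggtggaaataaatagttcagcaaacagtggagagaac
Serpina3g (chr12:104235897-104236146, plus strand): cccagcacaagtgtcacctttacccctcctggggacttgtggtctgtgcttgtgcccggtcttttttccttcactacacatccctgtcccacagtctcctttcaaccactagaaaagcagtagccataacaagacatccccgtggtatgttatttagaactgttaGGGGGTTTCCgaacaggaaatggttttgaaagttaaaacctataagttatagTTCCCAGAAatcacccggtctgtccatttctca
Serpina1a (chr12:103863620-103863869, minus strand): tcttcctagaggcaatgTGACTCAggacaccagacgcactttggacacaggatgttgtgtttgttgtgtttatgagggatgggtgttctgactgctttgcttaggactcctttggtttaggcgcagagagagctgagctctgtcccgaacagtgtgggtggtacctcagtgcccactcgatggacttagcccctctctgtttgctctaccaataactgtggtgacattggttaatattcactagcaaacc
Serpina1c (chr12:103904951-103905200, minus strand): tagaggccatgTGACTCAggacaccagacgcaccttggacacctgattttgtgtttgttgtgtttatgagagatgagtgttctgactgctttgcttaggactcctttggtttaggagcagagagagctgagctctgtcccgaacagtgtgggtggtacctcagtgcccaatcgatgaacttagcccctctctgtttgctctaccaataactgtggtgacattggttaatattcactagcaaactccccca
Serpinb2 (chr1:107511173-107511422, plus strand): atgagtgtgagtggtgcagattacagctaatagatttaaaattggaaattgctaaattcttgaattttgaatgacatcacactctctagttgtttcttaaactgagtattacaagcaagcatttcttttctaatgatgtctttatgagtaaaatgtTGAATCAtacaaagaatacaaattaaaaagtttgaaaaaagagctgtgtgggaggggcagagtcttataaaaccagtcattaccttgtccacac

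Serpina3f and Serpina3g each held a GAS match, 121 bases before the start used for Serpina3f and 33 before that of Serpina3g. The pair was identical at 134 of 161 aligned bases (83.2%), and from the other annotated start of Serpina3f at 141 of 197 (71.6%). Gaps were left out of these counts, and promoters of different clades could reach similar shares, such as Serpinb2 and Serpina3n at 148 of 199 (74.4%). Serpina3g held an NF-kB match as well, at 85 bases before its start. Serpina1a and Serpina1c each held an AP-1 match, 233 and 239 bases before the start, and these promoters were identical at 234 of 244 aligned bases. Serpinb2 held an AP-1 match 94 bases before the start shown, and a GAS match 77 bases before a second annotated start. Among all 32851 promoters of the same length, 7.02% held GAS, 5.85% the STAT6 site, 6.75% AP-1, 2.98% ISRE, 6.69% the heat shock element and 7.25% NF-kB. Of 58 promoters of members, 10 held GAS, 4 the STAT6 site, 10 AP-1, 2 ISRE, 3 the heat shock element and 3 NF-kB. These promoters came from 49 genes, and some overlapped, so that a site could count more than once. The Serpinb2 AP-1 match lay 94 and 181 bases before its annotated starts, and the Serpina3f GAS match 121 and 210 bases. Among further members described here, matches were an ISRE in Serpinb9 and in Serpinb6a, a GAS in Serpinb6a overlapping the ISRE, an AP-1 in Serpinb12, a STAT6 site in Serpinb1b and an NF-kB site in Serpinh1. None of the 6 motifs was in the windows of Serpina3n, Serpind1, Serpine2, Serpinf1, Serpini1 or Serpinb6b. These are descriptions of letters, not of bound sites.

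Inhibitors of granule proteases lie in clade B. Serpinb1a, an inhibitor of neutrophil elastase, proteinase 3 and cathepsin G, lay at 374 and 335 in control, 488 and 535 in IL-4, 98.3 and 112 in LPS, and 2626 and 2852 in colony cells. It fell 3.37-fold with LPS (-1.75 ± 0.11, adjusted p = 8.5e-05), rose 7.73-fold in colony cells (2.95 ± 0.11, adjusted p = 5.9e-06), and with IL-4 changed by 0.53 ± 0.11 (adjusted p = 0.026). The IL-4 call was lost without any 1 of the control, IL-4 or colony arrays (adjusted p 0.0511 to 0.147).
Serpinb1b and Serpinb1c are copies of it. Serpinb1b rose with LPS (1.17 ± 0.26) and IL-4 (1.27 ± 0.26), from 19.7 and 12.1 in control, where 1 of 2 arrays was well above background, to 32.3 and 37.5 in LPS and 33.9 and 41.1 in IL-4. Both calls were lost with normexp (log2 0.03 and 0.17), the LPS one without LPS replicate 2 (adjusted p = 0.051), and the IL-4 one without control replicate 2 or either IL-4 replicate. Serpinb1c was dim in control (8.9 and 4.7) and LPS, and at 67.0 and 66.1 in colony cells was at least 6.83-fold over control (adjusted p = 0.0061) and 1.55-fold with normexp.
Serpinb9, the inhibitor of granzyme B, lay at 287 and 277 in control, 433 and 393 in IL-4, 781 and 896 in LPS, and 388 and 375 in colony cells. It rose 2.97-fold with LPS (1.57 ± 0.10, adjusted p = 7.8e-05), by 0.55 ± 0.10 with IL-4 and by 0.44 ± 0.10 in colony cells. No group pairs overlapped, although the difference between colony and IL-4 cells was not called (-0.11 ± 0.10). Such separation was common, from 16246 of 26502 genes (IL-4 against control) to 23726 of 26503 (colony against IL-4 cells). The IL-4 call was lost without any 1 control or IL-4 array, and the colony call with median centring (adjusted p = 0.0665). Its copy Serpinb9e was lower with LPS (-0.88 ± 0.29, adjusted p = 0.048) and in colony cells (-1.41 ± 0.29), and the LPS call was lost without any 1 control, LPS or colony array (adjusted p up to 0.19).
Of 16 granule serine proteases tested among 18 listed, 2 were higher and 4 lower with LPS, 0 were called with IL-4 by limma (1 at an unadjusted p under 0.05), and 12 were higher and 2 lower in colony cells, with medians of 0.37, -0.17 and 2.74. The summed level of the list went the other way, at 7576 to 7995 in colony cells and 10824 to 12653 in control. Of the 18 listed, 9 were dim in control. Tpsb2 (-1.53 ± 0.20), cathepsin G (Ctsg, -0.95 ± 0.17) and proteinase 3 (Prtn3, -0.68 ± 0.09) led with LPS. In colony cells, mast cell chymase (Cma1, at least 45.3-fold), Gzmg (at least 26.2-fold) and Mcpt8 (at least 28.8-fold) led. In colony cells granzyme B (Gzmb) exceeded control by at least 24.0-fold, where Serpinb9 changed by 1.35-fold, while neutrophil elastase (Elane) fell by 2.0 on the log2 scale.

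The probes of Serpinb6a, Serpinb6c, Serpinb6d and Serpinb6e moved together. Serpinb6a inhibits cathepsin G and trypsin-like proteases inside cells. It lay at 133424 and 125603 in control, 87514 and 90004 in IL-4, 21665 and 23038 in LPS, and 36609 and 36968 in colony cells. It fell 5.79-fold with LPS (-2.53 ± 0.07, adjusted p = 5.6e-06), 3.52-fold in colony cells (-1.82 ± 0.07) and 1.46-fold with IL-4 (-0.54 ± 0.07, adjusted p = 0.0059).
Serpinb6c went from 102774 and 94236 in control to 68321 and 67664 in IL-4, 15424 and 16429 in LPS and 27704 and 27658 in colony cells. Serpinb6d went from 3547 and 3259 in control to 2653 and 2720 in IL-4, 555 and 611 in LPS and 1192 and 1188 in colony cells. Serpinb6e went from 1160 and 999 in control to 684 and 696 in IL-4, 138 and 158 in LPS and 220 and 235 in colony cells. With LPS these 3 changed by -2.63, -2.55 and -2.86, in colony cells by -1.83, -1.51 and -2.24, and with IL-4 by -0.53, -0.34 and -0.64. In every one of the 4 probes the order was control, IL-4, colony cells, LPS, with no overlap between groups. Most genes tested were separated so in each comparison, the fewest between IL-4 and control (16246 of 26502). The IL-4 calls were less stable than the LPS and colony ones, which held in every setting: all 4 IL-4 calls were lost without IL-4 replicate 1 (adjusted p 0.0526 to 0.179), and those of Serpinb6a, Serpinb6c and Serpinb6d with median centring.
Serpinb6b had another pattern, although neither its probe nor that of Serpinb6d overlapped the others' probes. It lay at 714 and 656 in control, 978 and 1055 in IL-4, 162 and 174 in LPS, and 12696 and 12943 in colony cells. It fell 4.09-fold with LPS (-2.03 ± 0.08) as the others did, but rose by 0.57 ± 0.08 with IL-4 (adjusted p = 0.0087, lost without IL-4 replicate 2) and 18.7-fold in colony cells (4.23 ± 0.08, adjusted p = 8.4e-07).

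Serpinb8, known as an inhibitor of furin, lay at 44222 and 42390 in control, 53716 and 67844 in IL-4, 236365 and 311768 in LPS, and 8048 and 8355 in colony cells, changes of 2.65 ± 0.17 with LPS and -2.40 ± 0.17 in colony cells. Its probe is largely the GT repeat printed above. In a check chosen after its values were seen, 31 other probes with 30 or more bases in such repeats were set beside it, and all 31 were called higher with LPS (median log2 1.56, range 0.50 to 2.80) and all 31 called lower in colony cells (median -2.27, range -2.80 to -1.73). A further 2 probes with at least as many repeat bases as Serpinb8's, named Zcchc9 and AW555464, changed by 1.3 and 1.55 with LPS and by -2.27 and -2.27 in colony cells. The Serpinb8 values thus had the direction of the other repeat-rich probes in both comparisons, and the part of the repeat in them was not tested.
Serpinb12, which inhibits trypsin-like proteases, was highest with IL-4. It lay at 12.1 and 15.5 in control, 58.8 and 65.8 in IL-4, 28.7 and 37 in LPS, and was not well above background in colony cells (7.4 and 4.1). It rose 4.54-fold with IL-4 (2.18 ± 0.31, adjusted p = 0.0079; 1.44-fold with normexp) and 2.38-fold with LPS (1.25 ± 0.31, adjusted p = 0.018), and its second probe, dim in control, was called in both (log2 2.35 and 1.95). The IL-4 call was lost without IL-4 replicate 2 (adjusted p = 0.058), and the LPS call with normexp (log2 0.04) and without control replicate 1 or LPS replicate 2 (adjusted p = 0.090 and 0.074). In colony cells it was at least 1.72-fold lower than in control, a call lost without control replicate 2 (adjusted p = 0.060).
Serpinb10-ps, the mouse pseudogene of the blood-cell serpin bomapin, was above background on 1 control array (12.1 and 3.9), on no IL-4 or LPS array (1.8 to 2.3), and on both colony arrays (47.2 and 60.7). It was 7.77-fold higher in colony cells than in control (2.96 ± 0.51, adjusted p = 0.0031). That fold rested on the control arrays and the correction: it was 13.6 without control replicate 1, 4.43 without control replicate 2 and 1.33 with normexp, called each time. Its lower call with LPS was lost without either LPS array (adjusted p = 0.102 and 0.0662), both groups lay near background, and no fold is given. Serpinb3c was lower in colony cells by 0.37 on the log2 scale (adjusted p = 0.027), a call lost without control replicate 1 or either colony replicate.

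Serpinf1 and Serpinh1 are serpins that do not act as protease inhibitors. Serpinf1 (pigment epithelium-derived factor), a secreted anti-angiogenic protein, lay at 267 and 253 in control, 60 and 52.3 in IL-4, 51.4 and 68.8 in LPS, and 2283 and 2221 in colony cells. It fell 4.64-fold with IL-4 (-2.21 ± 0.15, adjusted p = 7.6e-04) and 4.37-fold with LPS (-2.13 ± 0.15, adjusted p = 1.4e-04) and rose 8.66-fold in colony cells (3.11 ± 0.15, adjusted p = 1.7e-05). With normexp the falls were 2.75-fold and 2.82-fold. Among members well above background in both groups it had the largest called fall for IL-4, and the IL-4 and LPS arrays overlapped. A second probe gave 4.43 ± 0.24 in colony cells, but its falls with LPS (-0.64 ± 0.24, adjusted p = 0.070) and IL-4 (-0.44 ± 0.24, adjusted p = 0.30) were not called.
Serpinh1 (HSP47), which holds procollagen in shape in the endoplasmic reticulum, lay at 31.3 and 36.4 in control, 16 and 23.7 in IL-4, 8.3 and 18.9 in LPS, and 25938 and 26256 in colony cells. The colony level was 773-fold that of control (9.59 ± 0.40, adjusted p = 9.3e-06), the largest change of any member with a measured level in both groups, and 269-fold with normexp. With LPS it was lower (-1.43 ± 0.40, adjusted p = 0.028) with 1 of 2 LPS arrays above background, a call lost without either control replicate (adjusted p = 0.078 and 0.114) or either colony replicate (0.0518). The change was -0.84 without LPS replicate 1, -2.02 without LPS replicate 2 and -0.68 with normexp.
Its partners in collagen folding were higher in colony cells for 9 of 16 tested and lower for 3 (median 0.50), with Fkbp10 (8.84 ± 0.18), Sparc (8.79 ± 0.11) and Plod2 (6.4 ± 0.32) leading. With LPS 6 were higher and 4 lower (P3h3 at -2.41 ± 0.09, P3h2 at least 2.19-fold higher, Plod3 at 1.21 ± 0.09), and with IL-4 3 were higher and 3 lower (P3h3 -1.41 ± 0.09, Colgalt1 0.92 ± 0.09, Sparc -0.85 ± 0.11). The collagen gene Col1a1, a fibroblast marker and a client of this chaperone, changed by 9.06 ± 0.21 in colony cells.

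Further lists give the setting of these inhibitors. Lysosomal cysteine proteases, targets of Serpina3g and of several clade B serpins, were higher for 3 and lower for 6 of 11 with LPS, higher for 3 and lower for 1 with IL-4, and higher for 2 and lower for 8 in colony cells (medians -0.32, 0.00 and -1.23). Ctsc (2.46 ± 0.11), Ctsw (1.49 ± 0.21) and Ctsf (-1.46 ± 0.07) led with LPS, Ctsk (1.49 ± 0.11), Ctsl (0.70 ± 0.09) and Ctsz (0.49 ± 0.08) with IL-4, and Ctsh (-2.67 ± 0.08), Ctss (-2.15 ± 0.11) and Ctsz (-1.93 ± 0.08) in colony cells. Ctsb, a target of Serpina3g, fell by 0.50 on the log2 scale with LPS.
Receptors that clear serpin-protease complexes were higher for 3 and lower for 2 of 7 with LPS, higher for 2 and lower for 1 with IL-4, and higher for 3 and lower for 3 in colony cells. Sorl1 changed by -1.09 ± 0.11 with LPS, -1.22 ± 0.11 with IL-4 and -4.39 ± 0.11 in colony cells, Lrp1 by -0.95 ± 0.20 with LPS, and Lrpap1 by 0.38 ± 0.06 with IL-4. In colony cells Lrp2 exceeded control by at least 609-fold, and Vldlr changed by 7.16 ± 1.27.
Inhibitors of other families were higher for 9 and lower for 5 of 21 tested (24 listed) with LPS, higher for 4 and lower for 2 with IL-4, and higher for 9 and lower for 5 in colony cells. Slpi (6.01 ± 0.08), Timp1 (5.30 ± 0.11) and Cst7 (4.69 ± 0.07) led with LPS, Spint1 (2.52 ± 0.18), Cst7 (1.57 ± 0.07) and Timp1 (1.14 ± 0.11) with IL-4, and Timp3 (10.50 ± 0.54), Timp1 (7.95 ± 0.11) and Stfa1 (at least 40.5-fold) in colony cells.

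**Figure D4:**
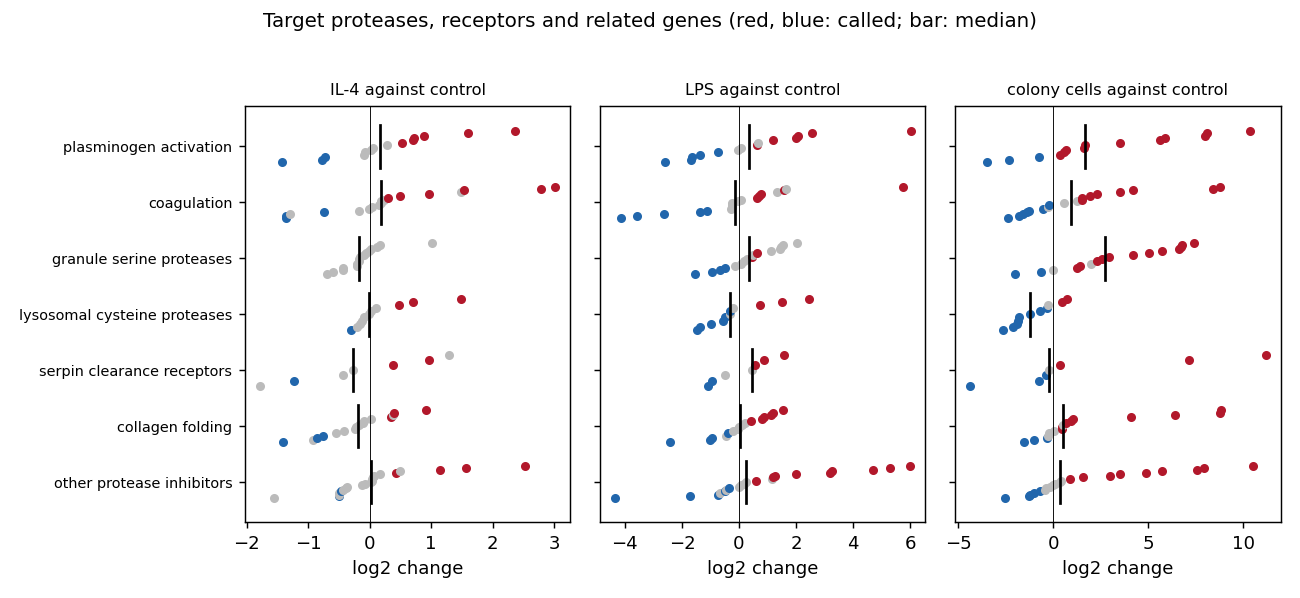
Log2 change against control of the genes of 7 lists related to serpins, in IL-4, LPS and colony cells, with 1 point per gene (red called higher, blue called lower, grey not called) and a bar at the median of each list. In colony cells the median is highest for granule serine proteases (2.74) and plasminogen activation (1.64) and lowest for lysosomal cysteine proteases (-1.23). Of the 18 granule serine proteases listed, 9 were dim in control, and the summed level of that list was lower in colony cells than in control.

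Set directly against each other, 18 of the 37 members were called between IL-4 and LPS (7 higher and 11 lower in IL-4, with 52.4% of all genes called, 25.6% higher and 26.8% lower). With quantile normalization 11 were higher and 11 lower, and with median centring 64.2% rather than 48.9% of all called genes were higher. Serpinb2 was at least 236-fold lower in IL-4, Serpina1a 12-fold lower and Serpini1 6.18-fold lower. Serpinb8, Serpina1c, Serpina3g, Serpina3f, Serpine2 (at least 2.43-fold) and Serpinb9 (2.03-fold) were lower in IL-4 by smaller amounts, while Serpinb6b (2.60 ± 0.08) and Serpinb1a (2.28 ± 0.11) led those higher in IL-4, followed by Serpinb6e, Serpinb6d, Serpinb6c and Serpinb6a (2.22 to 1.99). The Serpine2 call was lost with normexp (log2 -0.14, adjusted p = 0.473), where Serpinb2 was 38.8-fold, Serpina1a 5.25-fold and Serpini1 1.77-fold lower. A small call of Serpina3b (-0.41) was lost without either LPS array, either IL-4 array or either colony array (adjusted p 0.0583 to 0.154).
Between colony and IL-4 cells 31 of 37 were called (12 higher and 19 lower in colony cells, against 71.6% of all genes, 24.2% higher and 47.4% lower). Serpinh1 (1337-fold), Serpine2 (at least 70.9-fold), Serpind1 (at least 43.5-fold) and Serpinf1 (40.2-fold) were higher. Serpini1 (33.2-fold), Serpinb2 (at least 18.8-fold), Serpina3n (at least 16.8-fold), Serpinb6b (12.6-fold), Serpinb1c (6.89-fold), Serpinb10-ps (at least 5.73-fold) and Serpinb1a (5.36-fold) were higher too. The Serpinb8 probe (7.36-fold), Serpinb12 (at least 7.81-fold), Serpina3f (6.57-fold) and Serpina3g (3.49-fold) were lower, as were Serpinb6e, Serpinb1b, Serpinc1, Serpinb6c, Serpinb6a and Serpinb6d (3.03-fold to 2.26-fold). Relative to the all-gene median of -0.37, 2 of these calls change sign, the small ones of Serpina1e (-0.32) and Serpinb3c (-0.34), and both were lost without IL-4 replicate 2 (adjusted p = 0.0628 and 0.175). The Serpinb1c call was lost without IL-4 replicate 1 (adjusted p = 0.0553), colony replicate 1 (0.0543) or colony replicate 2 (0.0524). With normexp Serpinh1 was 352-fold, Serpinf1 19.7-fold, Serpine2 9.57-fold, Serpini1 6.49-fold and Serpinb1c 1.70-fold higher. Other genes given as bounds also fell below them. Serpind1 was then 6.02-fold, Serpinb2 3.82-fold, Serpina3n 3.58-fold and Serpinb10-ps 1.69-fold higher, and Serpinb12 2.34-fold lower.
Between colony and LPS cells 29 of 37 were called (15 higher and 14 lower in colony cells, against 76.5% of all genes, 26.6% higher and 49.8% lower). Serpinh1 (2086-fold), Serpinb6b (76.5-fold), Serpind1 (at least 44.8-fold), Serpinf1 (37.9-fold), Serpine2 (29.2-fold) and Serpinb1a (26.0-fold) were higher, followed by Serpina3n (at least 17.4-fold), Serpinb1c (at least 7.34-fold), Serpinb10-ps (at least 5.90-fold), Serpini1 (5.37-fold) and Serpinb6d (2.04-fold). Serpina1a (20.5-fold), Serpina3f (19.6-fold), Serpinb2 (12.6-fold) and Serpina3g (12.5-fold) were lower, as were the Serpinb8 probe (33.1-fold), Serpina1c (7.08-fold), Serpinb12 (at least 4.09-fold), Serpinc1 (3.65-fold), Serpinb1b, Serpina3b, Serpinb9 and Serpina10 (2.66-fold to 2.06-fold). The Serpinh1 fold rested on the LPS arrays, of which 1 was above background: it was 1384 without LPS replicate 1, 3143 without LPS replicate 2, 432 with normexp and 3560 with quantile normalization. With normexp Serpine2 was 8.70-fold and Serpinf1 20.2-fold higher, and Serpina1a 7.46-fold and Serpina3f 4.03-fold lower. The genes given as bounds fell below them with normexp. Serpind1 was then 6.94-fold, Serpina3n 4.15-fold, Serpinb1c 2.05-fold and Serpinb10-ps 1.94-fold higher, and Serpinb12 1.67-fold lower. The Serpinb8 probe was 20.1-fold lower with quantile normalization. Serpina11 had small calls against LPS (-0.46) and against IL-4 cells (-0.42). Each was lost when any 1 array of the groups compared was left out, and both were lost without LPS replicate 2. Its second probe went the other way, at 188 and 178 in colony cells, 171 and 156 in LPS and 145 and 130 in IL-4.

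By position, 23 members lie in the clade A cluster on chromosome 12 (probes over 797 kb), 15 in a clade B cluster on chromosome 13 (1075 kb) and 12 in a clade B cluster on chromosome 1 (726 kb). On chromosome 12, 14 passed; 4 were called higher and 2 lower with LPS, 2 with IL-4, both higher, and 1 higher (Serpina3n) and 5 lower in colony cells. On chromosome 13, 10 passed, with 2 higher and 7 lower for LPS, 4 and 4 for IL-4, and 4 and 5 for colony cells. On chromosome 1, 5 of the clade B genes passed, with 3 higher and 1 lower for LPS, 1 (higher) for IL-4, and 2 higher and 3 lower for colony cells. Neighbours did not always have the same direction: with LPS Serpinb2 rose, while its neighbour Serpinb10-ps was called lower near background, a call kept in 8 of 16 alternative settings. The remaining members lie apart, among them Serpinh1 (chr7:106493971-106494030, minus strand), Serpini1 (chr3:75446123-75446182, plus strand), Serpinf1 (chr11:75223582-75223641, minus strand) and Serpind1 (chr16:17343544-17343603, plus strand). No annotation of build mm9 was used here, and the exon or untranslated region under each probe is therefore not stated.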

How the data were processed

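RNA of 8 samples was measured on 1-colour mouse arrays, all on 1 slide. The deposited scanner files hold intensities from Agilent Feature Extraction 10.7.3.1, per the file headers, and probe positions on build mm9. A deposited table of log2 values holds the same arrays. Partek 6.4 and RMA are named, without their role, in the submitters' processing notes; per-array constants separate that table from the scanner values, and how they were set is not given in the sources used here.

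The processed signal was put on the log2 scale and each array's 75th percentile was subtracted. Control probes and outlier spots were left out. The filter asked for a signal well above background on each array of at least 1 group, and the probe with the highest mean over all arrays stood for its gene: 39411 of 55681 probes and 26504 genes passed. Limma 3.58.1 in R 4.3.3 fitted 4 group means on all 8 arrays (4 residual degrees of freedom), with eBayes and Benjamini-Hochberg adjustment over all genes, after being tested on simulated data. Alternatives were another background correction (normexp), quantile normalization, median centring, no filter, the deposited table, a fit per probe, an intensity trend, a replicate block and leaving out each array. The number of arrays limits the precision.

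Members and lists were chosen with earlier results of these data known. Members called at 2-fold or more were named, with values by array from 4-fold against control, and up to 3 called genes per list. Plau, Gzmb, Elane, Ctsb and Col1a1 were named outside this rule, after their values were seen. Some genes, 1 member among them, are not reported here by name; the counts include them.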

Additional observations from a re-analysis of the deposited data

How the results depend on the processing

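Of 145 calls of a serpin gene over the 6 comparisons, 111 were made in all 16 alternative settings, and no called change reversed. The number called for IL-4 against control was 5 to 16 when 1 array was left out (5 without IL-4 replicate 2 and 9 without IL-4 replicate 1). Over every setting run, the number called ranged from 21 to 25 for LPS against control, 25 to 32 for colony cells against control, 16 to 22 for IL-4 against LPS, 25 to 31 for colony against IL-4 cells and 27 to 31 for colony against LPS cells. Over all genes, IL-4 against control gave 4995 calls, against 2603 with median centring, 2566 in the authors' deposited table, and 2115 and 1948 without IL-4 replicate 1 and 2. Correlations of same-numbered arrays' deviations lay between -0.160 and 0.052, so that the numbers were not taken to pair the samples; with the replicate block 23 members were called for LPS, 15 for IL-4 and 29 for colony against IL-4 cells, and 27, 18 and 29 in the other comparisons (colony against control, IL-4 against LPS and colony against LPS). Folds of dim genes, lower bounds included, hold for the background correction used, and members near background, such as Serpinb12 and Serpinb1b, lost calls with normexp.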
